A study of Talinum fruticosum with 24 samples.

Results

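Leaves of Talinum triangulare that had been droughted and then re-watered were compared at midnight and at midday. Talinum triangulare, listed in the labels as Talinum fruticosum, is a small succulent herb that performs ordinary C3 photosynthesis when watered and turns on crassulacean acid metabolism (CAM, carbon fixation by night) under drought. The comparison used 6 of the series' 24 libraries, chosen by their labels alone: 3 from midnight (zeitgeber time, ZT, 18) and 3 from midday (ZT 6). Every plant in the series had 28 days of well-watered growth and then 12 days without water, so the controls for time of day had also been droughted. The re-watered group, called reC3 in the labels, then had 2 days of water, and the CAM group had none. Both groups were also sampled at the end of the day (ZT 12) and the end of the night (ZT 24), with 3 biological replicates in each of 8 groups. The tissue was whole mature leaf, so fewer cells of a type and less RNA per cell cannot be told apart.

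A leaf changes much of its transcript population between day and night, and most of that change is paced by the circadian clock together with light and sugar. The plant clock is a chain of repressors: morning MYB factors (LHY, CCA1) repress evening genes (TOC1, GI, the evening complex), and pseudo-response regulators expressed in sequence through the day repress the morning factors in turn. Starch is made in the chloroplast by day and broken down to maltose and glucose by night, and antenna proteins and chlorophyll are supplied mainly in the light.

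Messenger RNA was sequenced and counted by the authors per Arabidopsis thaliana gene identifier, so symbols and roles given here are those of the Arabidopsis gene, and the table used here carries no genome positions. Reads of close family members can be shared between identifiers, which is why paired values such as those of LHCB2.2 and LHCB2.3 should be read as those of a family. The midnight libraries held 6639119 to 6734534 counts and the midday libraries 7126936 to 8145122. The values below, in replicates 1, 2 and 3, are CPM, counts per 1000000 of the library total, with totals scaled for composition by TMM. The midday libraries differed more among themselves than the midnight ones: over 9458 genes at 10 CPM or more in either group, the median range across 3 libraries was 0.40 on the log2 scale at midday and 0.24 at midnight. More than a 2-fold range was seen in 1053 of those genes at midday and in 103 at midnight. Of the 1053, midday replicate 3 was the farthest library in 633, replicate 1 in 397 and replicate 2 in 23. Midday replicate 3 also had the smallest share of its counts in its 10 most abundant genes, 12.6% against 23.5% and 20.3% in replicates 1 and 2. The labels tie the midday and midnight libraries to a previous deposit and the other libraries to none, so levels at the other times are given beside these without a test across the sets.

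Among 14065 genes tested, 6099 (43.4%) differed between midnight and midday at an adjusted p under 0.05 in edgeR's quasi-likelihood test. Higher levels at midnight were called for 3051 genes (21.7%) and lower levels for 3048 (21.7%). The even split depended on the scaling: with library totals alone it became 5411 higher and 1556 lower, and the median log2 fold change of all genes moved from 0.03 to 0.43. At least a 2-fold difference was called for 1334 genes in the upward and 1587 in the downward direction. Very large differences were mostly falls: 107 called genes fell at least 16-fold and 28 rose at least 16-fold.

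**Figure D1:**
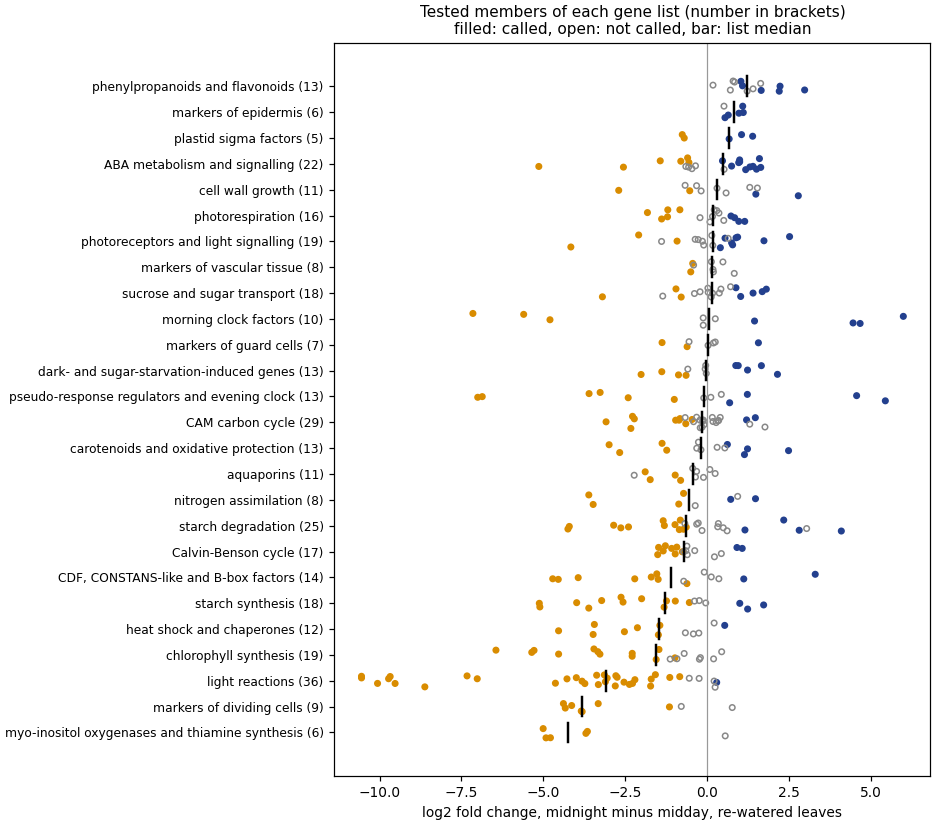
Log2 fold changes (midnight minus midday, x axis) of the tested members of 26 gene lists in re-watered leaves, with the number tested in brackets. Filled points were called, open points were not, and the black bars are list medians, which run from -4.24 for the myo-inositol oxygenase and thiamine list to 1.23 for the phenylpropanoids.

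The clock genes were among the most strongly changed. TOC1 (AT5G61380), an evening repressor of the morning factors, had 4.35, 3.29 and 3.57 CPM at midday and 84.9, 93.2 and 88.4 CPM at midnight. All 3 midnight libraries lay far above all 3 midday libraries, and the log2 fold change was 4.57 ± 0.16 (SE), with an adjusted p of 6.15e-15. ELF4, a subunit of the evening complex, rose from 0, 0.15 and 0.383 CPM to 9.60, 8.85 and 9.88 CPM, a log2 fold change of 5.45 ± 0.51. Its estimate was 6.57 without midday replicate 3, which held most of its few midday counts. LUX, the DNA-binding subunit of the same complex, rose by 1.24 ± 0.27. ELF3, the scaffold of that complex, had a log2 fold change of 0.44 with an adjusted p of 0.0727 and was not called.

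The pseudo-response regulators PRR9, PRR7, PRR5 and PRR3 went the other way. PRR9 had 67.5, 55.2 and 77.9 CPM at midday and 0.533, 0.499 and 0.641 CPM at midnight. PRR3 had 62.7, 63.9 and 61.3 CPM at midday and 0.667, 0.499 and 0.257 CPM at midnight. For neither gene did the libraries of the groups overlap, and the log2 fold changes were -6.86 ± 0.40 and -7.00 ± 0.32. PRR7 fell by 3.60 and PRR5 fell by 3.26 on the log2 scale. GI, a scaffold protein of the evening clock, fell from 193, 232 and 309 CPM to 53.2, 42.1 and 43.4 CPM, a log2 fold change of -2.404 ± 0.23. FKF1, a blue-light receptor that partners GI, fell by 0.995 ± 0.23 and was not called with library totals alone (adjusted p 0.0634). CHE, a regulator of CCA1, was called higher at 0.70 ± 0.25 (adjusted p 0.0282), and lost the call in 5 of the 6 fits that left out a library. Across the 13 tested genes of this list, 4 were called higher and 6 lower, with a median of -0.10, and 6 higher and 5 lower with library totals alone.

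Of 10 tested morning factors, 4 rose, 3 fell and 3 were not called, with a median of 0.07, and with library totals alone 5 rose and 3 fell. The 3 not called were LHY, CCA1 and RVE6. LHY stood at 163, 157 and 128 CPM at midday and at 125, 129 and 160 CPM at midnight, so the groups overlapped (log2 fold change -0.11 ± 0.17, adjusted p 0.625). CCA1 likewise had 38.4, 37.3 and 30.0 CPM against 37.2, 43.7 and 45.2 CPM, and was not called (adjusted p 0.246); with library totals alone it was called higher at 0.68. These similar midday and midnight levels lay between far lower and far higher ones at the other times: LHY averaged 1.96 ± 0.34 CPM (SD, n = 3) at the end of the day and 2473 ± 170 CPM at the end of the night. Its end-of-night minus end-of-day log2 change was 10.28 ± 0.26, and that of CCA1 was 9.83 ± 0.27. RVE6, another relative of LHY, had 27.6, 28.1 and 30.9 CPM at midday and 29.998, 27.7 and 22.6 CPM at midnight, so the groups overlapped (log2 fold change -0.11 ± 0.16, adjusted p 0.595).

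RVE1 and RVE2, relatives of LHY that link the clock to auxin and to seed and cold responses in Arabidopsis, were already high at midnight. RVE1 had 1.45, 1.05 and 0.765 CPM at midday and 21.2, 23.3 and 26.6 CPM at midnight, a rise of 4.47 ± 0.29. RVE2 had 0.907, 0.15 and 0.765 CPM at midday and 13.2, 13.96 and 20.3 CPM at midnight, a rise of 4.68 ± 0.38. Both reached higher means at the end of the night, 41.6 ± 2.1 and 39.3 ± 0.49 CPM. RVE8, an activator of evening genes, rose by 1.46 ± 0.18. RVE7 had no count in any midday library and 1.2, 0.872 and 1.28 CPM at midnight, which is at least 7.45-fold higher against a floor of 3 counts for the pooled midday libraries.

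The LNK genes, co-activators that work with RVE8, fell. LNK2 had 102, 81.6 and 79.1 CPM at midday and 0.80, 0.623 and 0.385 CPM at midnight, a log2 fold change of -7.15 ± 0.47. LNK1 fell by 5.60 ± 0.40 and LNK3 fell by 4.79 ± 0.44. In each of the 3 genes every midnight library was below every midday library.

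**Figure D2:**
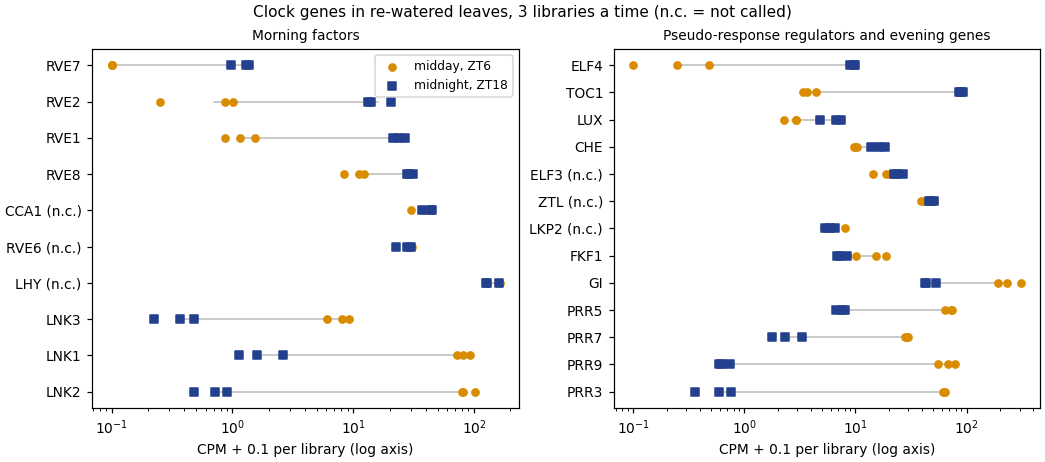
CPM + 0.1 in each library (log axis) of the 10 morning factors and 13 pseudo-response regulators and evening genes tested, with midday as orange circles and midnight as blue squares. Grey lines join the group means. TOC1 at midnight sits between 84.9 and 93.2 CPM and PRR9 between 0.499 and 0.641 CPM, while LHY overlaps between the times.

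Flowering-time and B-box factors changed in both directions. COL9, a CONSTANS-like B-box protein that delays flowering in Arabidopsis, rose from 2.90, 5.54 and 6.12 CPM to 49.6, 48.5 and 49.7 CPM, by 3.31 ± 0.19. COL4, COL5 and BBX24, members of the same zinc-finger family, fell by 4.71, 4.54 and 3.93. CDF3, a DOF repressor of CONSTANS, fell by 2.203 and BBX18 fell by 1.70. Of 14 tested genes of the CDF, CONSTANS-like and B-box list, 8 were lower and 2 higher, with a median of -1.10.

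Of 19 tested photoreceptors and signalling partners, 8 were higher at midnight and 3 lower, with a median of 0.18. The share called was 57.9%, against 43.4% of all genes tested. With library totals alone 10 were higher and 2 lower, with a median of 0.59 beside 0.43 for all genes. Their summed level was 2068, 1521 and 1547 CPM at midday and 1979, 2031 and 1979 CPM at midnight, so the groups overlapped. HYH and HY5, bZIP factors that promote light responses, rose by 2.53 ± 0.24 and 1.74 ± 0.34. HYH went from 2.54, 4.94 and 4.21 CPM to 19.9, 24.3 and 24.4 CPM, without overlap. The far-red receptor PHYA rose by 0.76 ± 0.13 and the blue-light receptor CRY1 rose by 0.89 ± 0.15. PIF7, a phytochrome-interacting growth factor, fell by 2.08 ± 0.18. PIF4, a factor of the same kind, had 1.45, 1.796 and 2.17 CPM at midday and 0.133, 0 and 0.128 CPM at midnight, a pooled midday-to-midnight ratio of 21.5 (95% exact counting interval 5.55 to 184).

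Antenna genes, whose proteins collect light for the photosystems, made up most of the 12 largest falls. LHCB1.2 (AT1G29910), the major antenna protein of photosystem II and the most abundant transcript at midday, had 80454, 63074 and 25172 CPM at midday. It had 82.1, 31.4 and 44.5 CPM at midnight, a log2 fold change of -10.06 ± 1.13 with an adjusted p of 6.72e-07. Even the lowest midday library, replicate 3, lay far above every midnight library.

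LHCB3, a subunit of the trimeric antenna, fell from 10016, 8707 and 3231 CPM to 9.07, 1.25 and 4.36 CPM, by 10.55 ± 1.15 (log2 fold change -11.34 without midnight replicate 1). The photosystem I antenna protein LHCA4 fell from 9407, 8203 and 3310 CPM to 7.999, 1.99 and 3.98 CPM, also by 10.55 (-11.18 without midnight replicate 1). LHCB2.2 and LHCB2.3, further trimer subunits, fell by 9.72 and 9.75. LHCA1, LHCB6 and LHCA3 fell by 9.67, 9.52 and 8.62, and LHCB5 and LHCA2 by 7.33 and 7.01. In all of these, midday replicate 3 was the lowest of its group. No library of one time reached the range of the other, but the naming rule required that of the 12 largest falls. Of all 14065 genes tested, 4716 passed that rule's filter of a call, at least 10 CPM and no overlap.

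Core and peripheral photosystem subunits fell less. PSAK and PSAH2, small subunits of photosystem I, fell by 4.63 ± 0.45 and 3.81 ± 0.41. PSAK had 5294, 4483 and 1824 CPM at midday and 179, 131 and 160 CPM at midnight. Of 36 tested genes of the light reactions, 31 fell and 1 rose, with a median of -3.07 against 0.03 for all genes tested. The single riser, LHCB7, had a log2 fold change of 0.30 and was named after its value was seen; without midday replicate 3 the counts were 32 and 0. AT5G28450, a chlorophyll a/b-binding family member outside the list, fell by 7.25.

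Chlorophyll synthesis fell with the antenna, in 12 of 19 tested genes with none higher, and the median was -1.55. CAO, which converts chlorophyll a to chlorophyll b, had 555, 369 and 201 CPM at midday and 4.53, 4.61 and 3.72 CPM at midnight, a log2 fold change of -6.44 ± 0.35. PORB and PORC, the light-dependent protochlorophyllide reductases, fell by 5.28 ± 0.58 and 5.35 ± 0.60. Without midday replicate 1, the highest library for both, those falls were 4.58 and 4.74. GUN4 and CHLH, which work in magnesium chelation, fell by 4.53 and 3.45, and the cyclase subunit CRD1 fell by 3.33. In each of these 6 genes midday replicate 1 was the highest midday library and replicate 3 the lowest, as in the antenna genes named above.

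**Figure D3:**
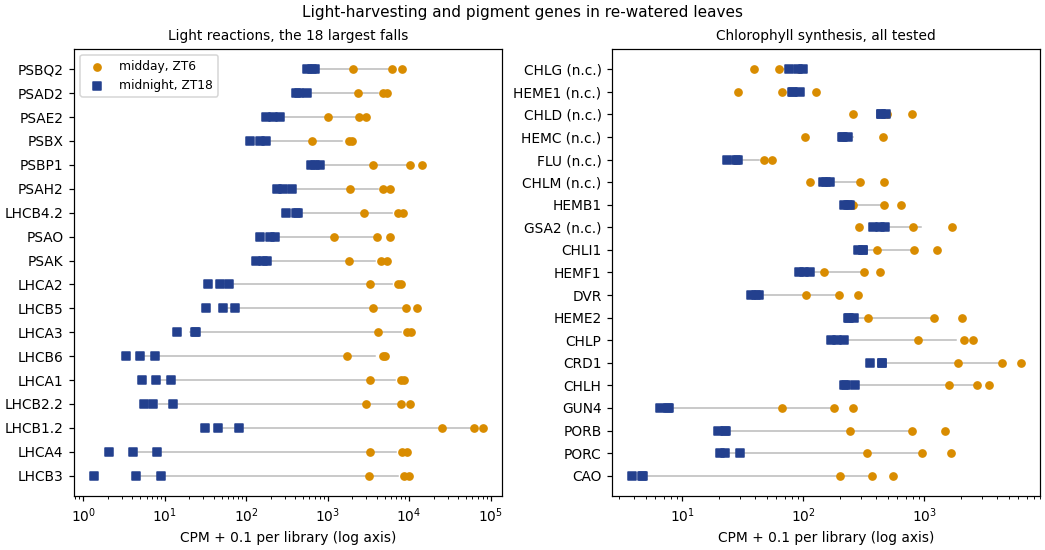
CPM + 0.1 in each library (log axis) of the 18 light-reaction genes with the largest falls and of all 19 tested chlorophyll-synthesis genes, with midday as orange circles and midnight as blue squares. The groups lie up to 3 orders of magnitude apart for the antenna genes, and the midday points spread more than the midnight points (LHCB1.2 from 25172 to 80454 CPM).

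Carbon-fixation genes moved far less than the antenna. RCA, the activase that keeps Rubisco active, was the most abundant transcript at midnight. It rose from 24378, 15845 and 10206 CPM to 38973, 32477 and 35116 CPM, by 1.08 ± 0.31 (adjusted p 0.00724), and was not called in a fit of the 6 libraries alone (adjusted p 0.0687). The small Rubisco subunits RBCS1A and RBCS3B were not called, with log2 fold changes of -0.64 ± 0.39 and -0.37 ± 0.35. RBCS1A had 67626, 54558 and 22836 CPM at midday against 35258, 26079 and 31606 CPM at midnight, and without midday replicate 3, which lies below every midnight library, it was called lower at -0.98.

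Of 17 tested Calvin-Benson genes, 8 fell and 2 rose, and the median was -0.71. Without midday replicate 3, 11 were called lower and 1 higher, and with library totals alone 7 were lower and 4 higher. CP12-1 and CP12-2, small linker proteins that switch off 2 cycle enzymes in the dark, fell by 1.47 ± 0.21 and 1.502 ± 0.20. The aldolases FBA1 and FBA3 fell by 0.92 and 1.08, and GAPB, the regulatory dehydrogenase subunit, fell by 1.33.

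Photorespiration, which recycles the product of Rubisco's oxygenation, was mixed, with 4 genes higher and 5 lower of 16, and 9 higher and 3 lower with library totals alone. PGLP1, the phosphatase of its first step, fell from 1502, 1234 and 810 CPM to 340, 326 and 342 CPM, by 1.82 ± 0.28. The hydroxypyruvate reductase HPR1 rose by 0.97 ± 0.21. GLU1, the ferredoxin-dependent glutamate synthase that reassimilates photorespiratory ammonium, rose from 2248, 1980 and 2371 CPM to 5002, 4560 and 5143 CPM, by 1.16 ± 0.25. SHM1, the mitochondrial serine hydroxymethyltransferase, fell by 0.82 ± 0.22, a call lost with library totals alone (adjusted p 0.0576).

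Among plastid sigma factors, which direct the chloroplast's bacterial-type RNA polymerase, SIG3, SIG2 and SIG6 rose by 1.398, 1.06 and 0.68. SIG1 and SIG5 fell by 0.69 and 0.75, and neither of these was called with library totals alone (adjusted p 0.115 and 0.224). SIG3 had 21.0, 28.4 and 29.1 CPM at midday and 66.4, 72.7 and 68.6 CPM at midnight. In the carotenoid and antioxidant list, 4 of 13 rose and 4 fell. The violaxanthin de-epoxidase VDE, which makes the photoprotective pigment zeaxanthin, rose from 82.0, 53.6 and 37.0 CPM to 332, 339 and 300 CPM, by 2.49 ± 0.32. ZEP, which runs that reaction backwards, fell by 1.23 ± 0.27. The chloroplast ascorbate peroxidases TAPX and SAPX fell by 2.99 and 2.66.

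Starch-synthesis genes were mostly lower at midnight. PGM1, the plastid phosphoglucomutase that feeds starch synthesis, had 366, 613 and 581 CPM at midday and 16.7, 13.96 and 14.2 CPM at midnight. The groups were far apart and the log2 fold change was -5.12 ± 0.23 with an adjusted p of 3.53e-13. GBSS1, the amylose-making synthase, fell from 1270, 1521 and 1515 CPM to 167, 147 and 150 CPM, by 3.21 ± 0.28.

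PGI1, the isomerase before PGM1, fell by 2.56 ± 0.25. APL4 and APL2, large subunits of the enzyme that makes ADP-glucose, fell by 3.98 and 2.62. Of 18 tested synthesis genes, 12 fell and 3 rose, with a median of -1.27. SS4, a synthase needed to start granules, rose from 102, 91.0 and 96.7 CPM to 312, 333 and 317 CPM, by 1.73 ± 0.14. The other risers were the debranching isoamylases ISA1 and ISA2, at 1.25 and 1.005, named after their values were seen.

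Degradation genes fell in 12 of 25 tested and rose in 4, and the median was -0.63. With library totals alone that split was 7 lower and 8 higher. MEX1, the maltose exporter of the chloroplast, fell from 179, 216 and 206 CPM to 31.3, 23.3 and 28.9 CPM, by 2.85 ± 0.21. The glucan phosphatase SEX4 fell by 2.63 ± 0.24 and the plastid phosphorylase PHS1 by 2.39 ± 0.26. BAM6, a beta-amylase, fell by 4.202 ± 0.66, and midday replicate 1 stood at 28.5 CPM beside 261 and 207 CPM in replicates 2 and 3.

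The 4 that rose were LSF1, BAM3, BAM9 and LSF2. LSF1, a non-catalytic scaffold of starch breakdown, had 0.907, 2.25 and 1.79 CPM at midday and 31.9, 29.0 and 27.1 CPM at midnight. The rise was 4.11 ± 0.26 with an adjusted p of 1.08e-10. At the other times its mean was 132.8 ± 19.7 CPM (SD, n = 3) at the end of the day and 2.09 ± 0.67 CPM at the end of the night. BAM9, which lacks amylase activity, rose from 19.4, 19.3 and 22.1 CPM to 100.4, 104 and 105 CPM, by 2.35 ± 0.17. BAM3, the main leaf beta-amylase, rose by 2.82 ± 0.49, and LSF2, a glucan phosphatase, by 1.16 ± 0.23. BAM3 and LSF2 were named after their values were seen.

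**Figure D4:**
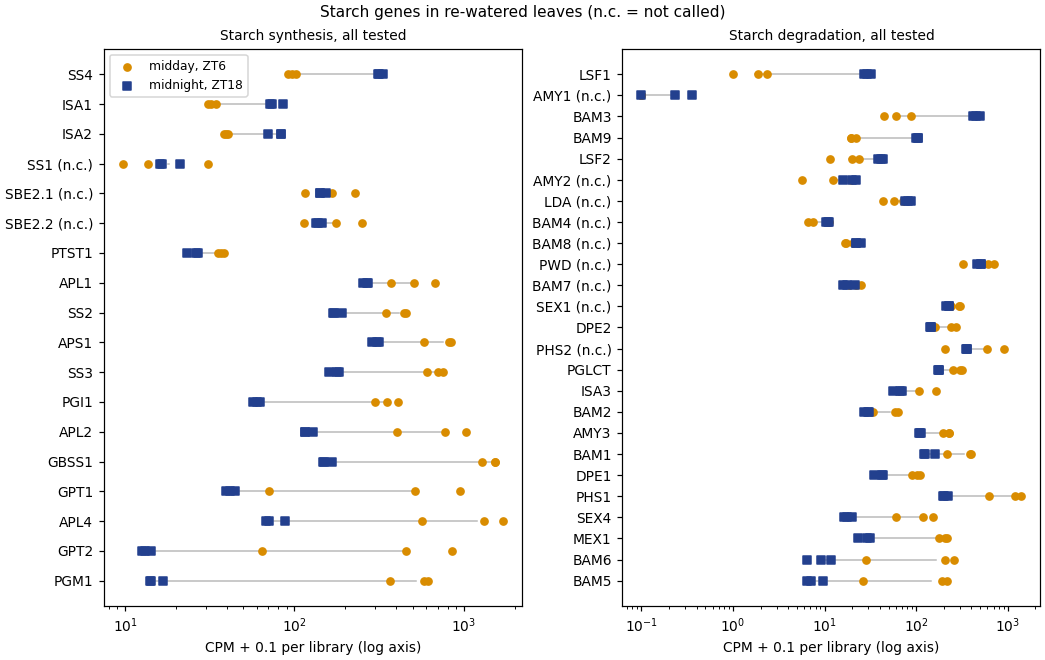
CPM + 0.1 in each library (log axis) of the 18 starch-synthesis and 25 starch-degradation genes tested, with midday as orange circles and midnight as blue squares. PGM1 falls from between 366 and 613 CPM to between 13.96 and 16.7 CPM, LSF1 rises to between 27.1 and 31.9 CPM, and several genes, GPT1 and GPT2 among them, spread widely at midday.

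Among the sucrose genes, SPSA1 and SPSA2, sucrose-phosphate synthases, rose by 1.69 ± 0.22 and 1.41 ± 0.17. SPSA1 had 56.0, 53.6 and 97.6 CPM at midday and 209, 228 and 233 CPM at midnight. The vacuolar sugar importers TST1 and TST2 rose by 1.03 and 0.89. SWEET16, a sugar channel of the vacuolar membrane, fell from 69.3, 83.8 and 86.7 CPM to 8.67, 9.35 and 8.21 CPM, by 3.19 ± 0.34. In all, 5 of 18 genes of this list rose and 3 fell, and 8 rose and 2 fell with library totals alone. The share called, 44.4%, was near the 43.4% of all genes tested, so it is not a result about this list.

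Dark- and starvation-induced genes were not uniform, with 5 of 13 higher and 4 lower, and 5 higher and 2 lower with library totals alone. DYL1, a dormancy-associated gene, rose from 184, 148 and 210 CPM to 874, 799 and 745 CPM, by 2.16 ± 0.33. DIN1, a gene named for its induction in darkness, fell by 2.01 ± 0.37, and by 2.83 without midnight replicate 1. TPS10 and TPS9, trehalose-phosphate synthase family members, rose by 1.24 and 0.96.

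Of 29 tested genes of the CAM carbon cycle, 2 rose and 9 fell in re-watered leaves, with a median of -0.15; with library totals alone 6 rose and 6 fell. The share called, 37.9%, was near the 43.4% of all genes tested, so it is not a result about this list. PPC1, a phosphoenolpyruvate carboxylase that captures carbon at night in CAM, had 593, 439 and 406 CPM at midday and 645, 732 and 531 CPM at midnight. The groups overlapped and the log2 fold change was 0.41 ± 0.35 (adjusted p 0.359). PPC2, at 0.28 ± 0.34, and PPC4, at -0.41 ± 0.38, were not called either.

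Both kinases that activate the carboxylase at night rose. PPCK1 had 32.3, 24.4 and 14.5 CPM at midday and 54.1, 45.4 and 64.7 CPM at midnight, a log2 fold change of 1.21 ± 0.34 (adjusted p 0.00595). PPCK2 rose from 7.98, 3.44 and 4.46 CPM to 13.7, 12.0 and 17.8 CPM, by 1.48 ± 0.31. PPDK, which regenerates phosphoenolpyruvate, had 563, 851 and 1159 CPM against 2128, 2140 and 2110 CPM; the groups did not overlap, but its log2 fold change of 1.31 ± 0.55 was not called (adjusted p 0.0601). In a fit of the 6 libraries alone its adjusted p was 0.00634, and with DESeq2 it was 0.034.

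The 9 falls included decarboxylases, carriers and malate dehydrogenases. The cytosolic malate dehydrogenase CMDH1 fell from 1263, 942 and 724 CPM to 212, 202 and 217 CPM, by 2.22 ± 0.17. PPT2 and PPT1, which carry phosphoenolpyruvate across the plastid envelope, fell by 3.08 ± 0.25 and 2.27 ± 0.25. The mitochondrial malic enzymes NAD-ME1 and NAD-ME2 fell by 0.85 and 0.64, and the second of these was not called with library totals alone (adjusted p 0.199). The 3 NADP-dependent malic enzymes had log2 fold changes of -0.21, 0.17 and -0.13 and none was called. BCA1, the abundant chloroplast carbonic anhydrase, fell from 33845, 25514 and 8033 CPM to 5479, 2888 and 5114 CPM, by 2.32 ± 0.60. BASS2, a pyruvate carrier, fell by 0.82 ± 0.30 and lost its call in 5 of the 6 fits without a library. It was also not called with library totals alone (adjusted p 0.329). RP1, the regulator of PPDK, fell by 0.45 ± 0.14, a call lost without midnight replicate 2 and with library totals alone.

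Nitrogen genes included both nitrate reductases. NIA1 had 609, 278 and 188 CPM at midday and 23.9, 17.8 and 46.4 CPM at midnight, a fall of 3.61 ± 1.02, or 2.99 without midday replicate 1. NIA2 showed nearly the same pattern, falling by 3.47 ± 1.06, with a log2 fold change of -2.88 without midday replicate 1 and an adjusted p of 0.052 without midnight replicate 2. GLU2, a glutamate synthase, rose by 1.49 ± 0.29 beside GLU1. Of 8 tested genes, 2 rose and 4 fell, and 3 rose and 2 fell with library totals alone.

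Urease (URE, AT1G67550), which releases ammonium from urea, had the largest rise under the naming rule. It had 2.18, 3.89 and 3.83 CPM at midday and 315, 368 and 333 CPM at midnight. The groups were about 2 orders of magnitude apart, with a log2 fold change of 6.65 ± 0.22 and an adjusted p of 2.20e-15. At the end of the day and of the night it averaged 98.2 ± 5.5 and 151.5 ± 19.2 CPM (SD, n = 3). Other large rises outside the lists were those of the PLATZ factor AT1G21000 (5.58 ± 0.49), the wound-responsive family gene AT4G28240 (5.55 ± 0.45), MEE14 (4.77 ± 0.21), the DnaJ-domain gene AT1G80920 (4.75 ± 0.41) and the thioredoxin WCRKC2 (4.55 ± 0.41). The estimate of WCRKC2 was 5.36 without midday replicate 2. AT1G18170, an FKBP-type isomerase gene, rose by 4.55 ± 0.69, and by 5.27 without midday replicate 1. AT3G29240, of unknown function, rose from 17.2, 16.2 and 9.69 CPM to 227, 259 and 240 CPM, by 4.08 ± 0.43.

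At the other end, the ribonuclease T2 gene AT1G14210 had 35.0, 29.3 and 4.08 CPM at midday and no count in any midnight library. That is at least 163-fold lower at midnight against a floor of 3 counts for the pooled midnight libraries. AT1G70260, an EamA-like transporter gene, had 31.7, 13.6 and 7.01 CPM at midday and 0, 0 and 0.128 CPM at midnight, a single count. The pooled midday-to-midnight ratio was 374 (95% exact counting interval 66.6 to 1.48e+04), and such intervals cover counting error only.

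Of 13 tested phenylpropanoid and flavonoid genes, 6 were called higher and none lower, and the median was 1.23. The share called, 46.2%, was near the 43.4% of all genes tested, of which 21.7% were called higher and 21.7% lower. FLS1, which makes flavonols, had 5.26, 8.38 and 13.6 CPM at midday and 67.9, 75.7 and 77.1 CPM at midnight, a log2 fold change of 2.99 ± 0.40. F3H, an earlier step, rose by 1.66 ± 0.40, and MYB111, an activator of flavonol genes, by 2.21 ± 0.55. Midday replicate 3 was the highest midday library for all 3 genes, and without it F3H rose by 2.44 and MYB111 by 3.29. CHS, the entry enzyme of the pathway, had 15.96, 73.4 and 325 CPM at midday and 425, 440 and 433 CPM at midnight and was not called (adjusted p 0.0627), whereas without midday replicate 3 it was called at 3.27; it was named after its values were seen. Without that library 9 of the 13 genes were called higher, and with library totals alone 11, with none lower in either. Of all 14065 genes tested, 5411 were higher with library totals alone.

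Abscisic acid genes leaned upward, with 11 of 22 higher and 6 lower and a median of 0.50. Of all genes tested, 21.7% were called in each direction, with a median of 0.03. With library totals alone 11 were higher and 3 lower, with a median of 0.90 beside 0.43 for all genes. The receptor PYL9 rose from 57.5, 67.5 and 94.2 CPM to 235, 227 and 225 CPM, by 1.65 ± 0.16. ABF1, a transcription factor of the pathway, rose by 1.31 ± 0.22, and the phosphatase HAB2, a brake on the pathway, rose by 1.19 ± 0.20. NCED4, a carotenoid cleavage dioxygenase, fell from 1299, 1497 and 1216 CPM to 40.5, 37.8 and 35.9 CPM, by 5.13 ± 0.47. CYP707A4, which breaks down abscisic acid, fell by 2.55 ± 0.32, and the receptor PYR1 fell by 1.42 ± 0.22.

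THI1 and THIC, which make the thiazole and the pyrimidine part of thiamine, fell by 3.70 ± 0.45 and 3.65 ± 0.48. THI1 had 481, 824 and 631 CPM at midday and 61.3, 37.9 and 50.2 CPM at midnight. The myo-inositol oxygenases MIOX1 and MIOX4, which make glucuronic acid, fell, with log2 fold changes of -4.91 and -4.78. Midday replicate 3 was highest for both, at 32.5 and 13.01 CPM, and without it the log2 fold changes were -3.80 and -3.53. That of MIOX4 was -5.44 without midnight replicate 3.

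Heat-shock genes fell in 7 of 12 tested and rose in 1, with a median of -1.46. HSP101, a disaggregating chaperone, had 18.3, 20.7 and 26.5 CPM at midday and 5.33, 4.61 and 5.13 CPM at midnight, a fall of 2.12 ± 0.32. The small heat-shock protein HSP23.6 fell by 4.53 ± 0.73. Aquaporin genes, which code for water channels, fell in 4 of 11 tested with none higher, and with library totals alone in 2 with 2 higher. The share of aquaporin genes called, 36.4%, was below the 43.4% of all genes tested. TIP1.1, of the vacuolar membrane, fell from 2332, 2053 and 813 CPM to 677, 376 and 514 CPM, by 1.73 ± 0.48. The fall of PIP2.2, of the plasma membrane, at 0.97, lost its call in 3 of the 6 fits without a library: without midday replicate 1 (-0.59, adjusted p 0.17), midnight replicate 2 (adjusted p 0.0583) or midnight replicate 3 (adjusted p 0.0648). It was also not called with library totals alone (adjusted p 0.115). TIP4.1 lost its call in 4 of the 6 fits without a library.

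In the cell-wall list, 2 of 11 rose and 2 fell, and 5 rose and 1 fell with library totals alone. The share called, 36.4%, was below the 43.4% of all genes tested, so it is not a result about this list. The expansin EXPA5, which loosens walls, rose from 3.99, 3.44 and 2.68 CPM to 21.6, 18.3 and 29.6 CPM, by 2.79 ± 0.47. XTH8, a xyloglucan-modifying enzyme, fell by 2.69 ± 0.62.

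Genes of DNA replication marked a difference among the midday libraries. All 6 tested MCM genes, subunits of the replicative helicase, fell, with log2 fold changes of -3.32 for MCM5 to -4.38 for MCM3. MCM2 had 71.8, 42.5 and 8.54 CPM at midday and 2.13, 2.62 and 3.72 CPM at midnight. Its log2 fold change was -3.84 ± 0.70, and -3.16 without midday replicate 1; that of MCM3 was -3.72 without it. Over the 9 tested markers of dividing cells, of 11 listed, 7 fell and none rose, and with library totals alone 7 fell and 1 rose. The share called was 77.8%, against 43.4% of all genes tested. PCNA1, also a gene of DNA replication, fell by 1.14 ± 0.28. The highest log2 fold change among the 9 markers, 0.77, was that of a cyclin or cyclin-dependent kinase gene and was not called. The summed level of the 9 markers was 330.9, 229.3 and 61.5 CPM at midday and 28.4 to 34.3 CPM at midnight. Midday replicate 1 thus held the most of these markers and replicate 3 the least, as for the antenna and chlorophyll genes. Their part in those results was not tested.

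Markers of other leaf tissues were present in all 6 libraries. Epidermal markers rose in 5 of 6 tested, with summed levels of 515.3 to 572.8 CPM at midday and 939.7 to 1020.1 CPM at midnight. ANL2, an epidermal homeodomain factor, had 58.0, 60.3 and 60.4 CPM against 129, 128 and 130 CPM, a rise of 1.11 ± 0.11. FDH, which makes long-chain fatty acids for the surface, rose by 0.98 ± 0.14, and the wax exporter CER5 rose by 1.09 ± 0.25. PDF2, also among the 5, lost its call without midday replicate 1 (adjusted p 0.0585) or 2 (0.075). It was not called in the fit of the 6 libraries alone either (adjusted p 0.0704). Guard-cell markers summed to 75.9 to 80.9 CPM at midday and 65.4 to 76.6 CPM at midnight, with 1 of 7 higher and 2 lower (3 and 1 with library totals alone). Among them GORK, an outward potassium channel, rose by 1.57 ± 0.31 and ALMT12, an anion channel, fell by 1.37 ± 0.29. The other lower call, KAT2, an inward potassium channel, was lost in 5 of the 6 fits without a library and with library totals alone. Vascular markers summed to 643.8 to 726.4 CPM at midday and 569.7 to 634.5 CPM at midnight, with 2 of 8 lower and none higher (0 and 4 with library totals alone). Both calls, IRX3 and IRX5, were lost in 4 of the 6 fits without a library. The share called was 83.3% for epidermal, 42.9% for guard-cell and 25% for vascular markers, against 43.4% of all genes tested. The part of the epidermal markers in the other rises was not tested.

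The midnight change was then set against that of leaves still under drought, which perform CAM. The difference between the changes, tested as an interaction in the same fit, was called for 3139 of 14065 genes (22.3%), 1707 with a more positive change in re-watered leaves and 1432 with a more negative one. That balance turned to 1252 and 1811 without droughted midnight replicate 2, to 1545 and 1604 with RLE scaling and to 1673 and 1720 with DESeq2. In 266 of the 3139 the change was called in both conditions with opposite signs, and in 763 it was called in both with the same sign. The change of LHCA3 was -8.62 ± 0.59 in re-watered and -8.59 in droughted leaves, with an adjusted p of 0.98 for the difference. TOC1 rose by 4.57 and 4.14, PRR9 fell by 6.86 and 7.43, and neither difference was called (adjusted p 0.14 and 0.63).

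Opposite changes were seen in CYP78A10, a cytochrome P450 of a family that controls organ size. It fell from 29.3 ± 4.1 CPM (SD, n = 3) at midday to 3.57 ± 0.53 CPM at midnight in re-watered leaves and rose from 0.716 ± 0.36 to 3.67 ± 1.1 CPM in droughted leaves. The midday means of the conditions lay far apart and the midnight means close together, and the difference of the log2 changes was -5.30 ± 0.41 with an adjusted p of 1.09e-07. AT1G17710, a phosphatase gene, and AT1G56230, of unknown function, likewise fell in re-watered leaves, by 1.62 and 1.66, and rose in droughted leaves, by 1.36 and 2.803. AT1G21460, a gene of the MtN3 family of sugar transporters, rose by 2.09 in re-watered leaves and fell by 1.23 in droughted ones. PHYA rose by 0.76 after re-watering and fell by 0.41 under drought.

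In starch breakdown, LSF1 and BAM9 differed in opposite directions. LSF1 rose by 4.11 ± 0.26 in re-watered and by 0.83 ± 0.21 in droughted leaves, a difference of 3.28 ± 0.34 (adjusted p 2.33e-06). Its mean at midday was 1.65 ± 0.68 CPM after re-watering and 13.6 ± 3.4 CPM under drought. BAM9 rose more under drought, by 4.21 against 2.35, to 1039.6 CPM against 103 CPM at midnight. MEX1 fell by 4.41 in droughted and 2.85 in re-watered leaves. FLS1 had a log2 change of 0.02 in droughted leaves against the rise of 2.99 after re-watering, and the difference was called (adjusted p 7.75e-04).

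Some genes changed strongly under drought and were not called after re-watering. SHM3, a plastid serine hydroxymethyltransferase, and HIP1, a chaperone-interacting protein, had changes of -0.27 and -0.04 in re-watered leaves and of -3.43 and -2.16 in droughted leaves. CAM-cycle genes differed between the conditions in 9 of 29 cases, beside 22.3% of all genes tested. Droughted leaves had 7 of those 29 genes higher at midnight and 14 lower, beside the 2 and 9 given above. The total of called genes was also larger under drought. Of all 14065 genes tested, 3597 were higher and 3722 lower there, against 3051 and 3048 in re-watered leaves.

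**Figure D5:**
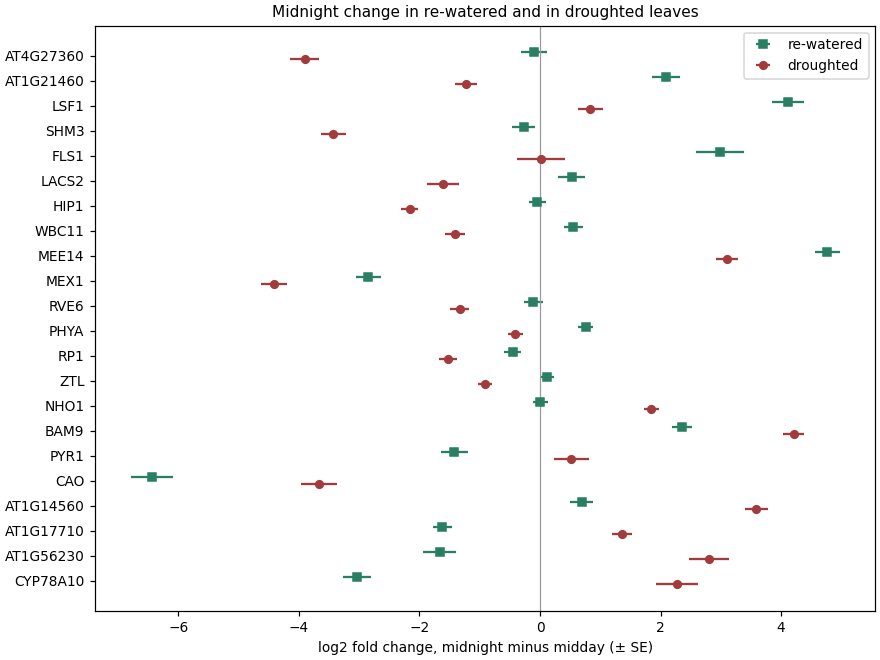
Log2 fold changes (midnight minus midday, ± SE, x axis) in re-watered leaves (green squares) and in droughted leaves (red circles) for the 22 named genes whose changes differed most clearly. LSF1 moves from 0.83 under drought to 4.11 after re-watering, and CYP78A10 from 2.27 to -3.03.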

How the data were processed

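Leaf mRNA of 24 libraries (8 groups of 3) was sequenced as single-end reads with a kit that does not mark strand, per the labels' protocols. The authors deposited raw counts per Arabidopsis identifier for 22079 identifiers. The submitters' processing notes name CASAVA 1.8.2 and TAIR10, and the sources used here do not name the aligner or counter. 40 further columns of values (RPM, means and scaled values) were not used. All columns were matched to samples by condition, zeitgeber time and replicate number.

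The deposited counts were fitted with edgeR 4.0.16 (R 4.3.3; filterByExpr by group, TMM, robust quasi-likelihood, 1 mean per group, all 24 libraries), leaving 14065 genes and a common biological coefficient of variation of 0.196. p-values were adjusted by Benjamini-Hochberg over all genes tested and called under 0.05. SE values are the fold change over the root of its F statistic. The script was tested on simulated data. Per-library depth is given as total counts, so values of a few CPM rest on few reads. No 2 replicates agreed within counting noise (3.91 to 128.2 chi-square units per degree of freedom), so none was merged.

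Members and 26 gene lists (389 of 487 entries in the table, 378 tested) were chosen with earlier results of these data known. Named were the 12 largest called changes each way with at least 10 CPM and no overlap, the 5 most abundant genes at each time, up to 6 members a list by smallest adjusted p, all tested clock and CAM-cycle genes and the 10 clearest differences between conditions, 1 of which is not reported here. Alternatives were DESeq2 1.42.0, other scalings, no filter, a stricter call, a replicate block, the compared groups alone and each library left out.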

Additional observations from a re-analysis of the deposited data

Results flagged for a closer look

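The test of the difference between the midnight changes of re-watered and droughted leaves called 3139 genes in edgeR's quasi-likelihood fit. The genes below are named ones whose difference had an adjusted p under 0.001; each value is the re-watered minus the droughted log2 change. More positive changes after re-watering were those of AT4G27360, a dynein light chain (3.80), AT1G21460 (3.32), LSF1 (3.28), SHM3 (3.16) and FLS1 (2.97). Smaller ones of the same sign were those of the cuticle genes LACS2 (2.13) and WBC11 (1.96), of HIP1 (2.11), MEE14 (1.66), MEX1 (1.57), the morning factor RVE6 (1.22), PHYA (1.17), RP1 (1.08) and the blue-light receptor ZTL (1.04). More negative changes after re-watering were those of CYP78A10 (-5.30), AT1G56230 (-4.47), AT1G17710 (-2.98), the mitochondrial carrier AT1G14560 (-2.90), CAO (-2.77), PYR1 (-1.94), BAM9 (-1.86) and NHO1, a glycerol kinase (-1.85). Groups of 3 are too small for a search for single outlying samples.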

How the results depend on the processing

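With library totals alone, 5411 genes were called higher and 1556 lower at midnight in re-watered leaves, 922 genes had a more negative change there than in droughted leaves, and the end-of-night minus end-of-day comparison gave 1509 higher and 8945 lower genes. With an adjusted p under 0.01 and at least a 2-fold change, the counts were 2567 genes (1153 higher, 1414 lower) for midnight minus midday, 1300 (704 and 596) for the difference between conditions and 4680 (2401 and 2279) for end of night minus end of day, where 8152 (4096 and 4056) had been called. Leaving out 1 library gave 4948 to 5730 genes for midnight minus midday, 2515 to 3186 for the difference and 7426 to 8087 for end of night minus end of day. The counts of these comparisons under the other alternatives were within 1.5 times. Same-numbered midday and midnight libraries did not deviate together (correlations of 0.16, -0.10 and -0.04 over genes), so the numbers were not taken as pairs. The replicate block gave 6105 genes (3088 higher, 3017 lower), 1 of 221 named genes lost its call under it (TIP4.1) and 4 gained one. No called direction was reversed under any alternative among the 221 genes, of which the fit of the compared groups alone covered 214. Library totals alone ended 16 calls and added 15, and leaving out a library ended the call in 51 of 1326 such gene values. Low counts limit genes near 1 CPM, such as RVE7 and PIF4.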

Other observations

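Gene families were also counted by words in the deposited gene descriptions. These families were chosen after the data had been seen, so no test is given. Counts in re-watered leaves with TMM scaling stand beside the 21.7% of all genes called in each direction. Counts with library totals alone stand beside 5411 higher and 1556 lower of all 14065 genes tested, with a median log2 fold change of 0.43. Of 20 tubulin-related genes, whose products build or fold microtubules, 13 were lower and 1 higher at midnight in re-watered leaves, with a median log2 fold change of -1.34; with library totals alone the counts were 11 and 3. Of 103 cytochrome P450 genes, a family of oxygenases with many roles in secondary metabolism, 43 were lower and 16 higher (median -0.35), and 33 and 25 with library totals alone (median 0.04). In the nodulin MtN21 family of transporters 9 of 21 genes were lower and none higher, and 4 and 1 with library totals alone. Calls were made for 70% of the tubulin-related, 57.3% of the cytochrome P450 and 42.9% of the MtN21 genes. The MtN21 share was thus near the 43.4% of all genes tested. Among 93 leucine-rich repeat kinase genes 31 were higher and 10 lower, and among 14 autophagy genes 8 were higher and 1 lower. Of 30 WRKY genes, 8 were higher and none lower. The shares called were 44.1% for the kinase, 64.3% for the autophagy and 26.7% for the WRKY genes, against 43.4% of all genes tested. The WRKY share was thus below that of all genes. With library totals alone the kinase genes had 48 higher and 5 lower, the WRKY genes 17 and 0, and the autophagy genes 11 and 0. Pentatricopeptide repeat genes, which process RNA in chloroplasts and mitochondria, were higher in 49 and lower in 18 of 193 cases after re-watering (median 0.32). The share called was 34.7%, against 43.4% of all genes tested, and with library totals alone 89 were higher and 9 lower. Under drought 20 were higher and 40 lower (median -0.09), beside 3597 and 3722 of all 14065 genes tested. The difference between conditions was called for 21 of the 193 genes, a lower share than the 22.3% of all genes tested. The difference between these family counts was not tested. Of 278 ribosomal protein genes, 36 were lower and 13 higher (median -0.02), but with library totals alone 7 were lower and 97 higher.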
